A study of Rattus norvegicus with 24 samples.

Results

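*Ly49si1*, *Ly49si2* and *Ly49si3* are 3 genes of the natural killer cell gene complex (NKC) of the rat, and they were measured by 15 probes, 5 for each gene, of 8453 non-control probes on a custom array that carried 7249 gene names. The members were the probes that the study's list of NKC probes assigns to the 3 symbols. Skin of the paw of 12 male BN rats aged 15 weeks was used, with 2 explants from each rat. One explant was co-cultured for 3 days with syngeneic lymphocytes of BN origin, and the other with pre-stimulated allogeneic lymphocytes of PVG origin. In both arms the lymphocytes were spleen cells taken from a 7-day mixed lymphocyte reaction (MLR) with irradiated BN spleen cells, so that the control explant also held added lymphocytes. RNA from both explants of an animal was hybridized to the same array, one in Cy3 and the other in Cy5, and a second array carried the same pair with the dyes exchanged. The comparison asks how expression differs in skin explants undergoing a graft-versus-host reaction in vitro. The strain of the lymphocytes and their allogeneic stimulation changed together, so that their parts in any difference cannot be told apart. Only male BN skin was used.

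Ly49 receptors are C-type lectin-like receptors of the surface of natural killer (NK) cells and of some other leukocytes, and they bind classical and non-classical class I molecules of the MHC. Inhibitory members carry an immunoreceptor tyrosine-based inhibition motif (ITIM) in the cytoplasmic tail, which recruits phosphatases such as SHP-1. Activating members lack it and pair through a charged residue of the membrane segment with the adaptor DAP12, which signals through Syk family kinases. Members of the bifunctional type, named with the letters si, carry both features. In the order of genes in the RefSeq table of assembly GRCr8, *LOC690045*, *Ly49si3*, *LOC124459649*, *Ly49si1*, *Ly49si3l1* and *Ly49si2* follow each other on chromosome 4.

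The probes are 60 bases long and were printed in 4 spots each. The letters a to e give their order in the numbering of the array design, not their order in the transcript. Their sequences are shown because they decide which of the 3 genes a value can be assigned to. Capitals mark the longest run that a probe shares, base for base, with a probe of another *Ly49si* gene, where that run is 15 bases or longer.
Ly49si1 a: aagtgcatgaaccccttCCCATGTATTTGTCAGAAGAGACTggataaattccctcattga
Ly49si1 b: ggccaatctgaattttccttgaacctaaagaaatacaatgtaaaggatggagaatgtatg
Ly49si1 c: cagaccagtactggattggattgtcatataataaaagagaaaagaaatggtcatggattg
Ly49si1 d: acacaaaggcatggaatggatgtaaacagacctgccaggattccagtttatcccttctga
Ly49si1 e: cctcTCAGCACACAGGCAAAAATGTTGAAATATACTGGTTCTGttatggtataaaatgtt
Ly49si2 a: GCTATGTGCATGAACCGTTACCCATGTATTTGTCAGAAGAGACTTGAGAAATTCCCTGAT
Ly49si2 b: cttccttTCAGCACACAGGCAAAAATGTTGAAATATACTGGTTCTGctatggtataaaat
Ly49si2 c: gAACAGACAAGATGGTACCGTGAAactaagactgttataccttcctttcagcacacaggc
Ly49si2 d: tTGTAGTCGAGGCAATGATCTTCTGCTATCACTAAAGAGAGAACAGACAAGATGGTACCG
Ly49si2 e: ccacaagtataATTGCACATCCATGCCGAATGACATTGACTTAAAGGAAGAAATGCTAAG
Ly49si3 a: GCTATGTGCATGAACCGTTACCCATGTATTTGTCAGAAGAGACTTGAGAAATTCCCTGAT
Ly49si3 b: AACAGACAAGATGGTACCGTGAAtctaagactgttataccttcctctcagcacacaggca
Ly49si3 c: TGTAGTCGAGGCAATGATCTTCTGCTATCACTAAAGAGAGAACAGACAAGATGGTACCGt
Ly49si3 d: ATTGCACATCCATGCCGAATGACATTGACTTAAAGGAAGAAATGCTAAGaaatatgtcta
Ly49si3 e: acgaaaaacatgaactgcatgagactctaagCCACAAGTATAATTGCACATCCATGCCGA

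The 15 probes held 14 distinct sequences, because probe a of *Ly49si2* and probe a of *Ly49si3* are the same 60-mer. When probes of different *Ly49si* genes were laid over each other without gaps, 5 pairs overlapped in 30 or more positions with at most 3 mismatches, and 10 of the 15 probes belonged to such a pair. Probe d of *Ly49si2* and probe c of *Ly49si3* shared 59 bases with 0 mismatches, and probe e of *Ly49si2* and probe d of *Ly49si3* shared 49. The other two pairs held 2 mismatches each. Counted from the 5′ end of the first probe, probe c of *Ly49si2* differed from probe b of *Ly49si3* by A25T and T47C over 59 positions, and probe e of *Ly49si1* differed from probe b of *Ly49si2* by C4T and T44C over 57 positions. Probes b, c and d of *Ly49si1* shared at most 8 bases in a row with a probe of *Ly49si2* or *Ly49si3*. Values of *Ly49si2* and *Ly49si3* therefore come largely from shared sequence, whereas *Ly49si1* had 3 probes apart from the others. Probes of 1 gene also shared bases, for example 20 between the end of probe c and the start of probe b of *Ly49si2*.

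All 15 probes gave a lower mean signal in the allogeneic than in the syngeneic explants, with mean log2 ratios (allogeneic over syngeneic) between -0.66 and -2.44, and all 15 passed the test (limma, adjusted p from 8.89e-05 to 0.00616 over 8453 probes). Over the whole array 17.3% of the probes were called in either direction, 8.48% as lower and 8.78% as higher. The signs follow the dye labels of the samples, and they are opposite to the direction the study gives for these genes. The same holds for *Ly49i9*, *LOC690045*, *RT1-CE10*, *Fcgr3a*, *Ctss* and *Aif1*, given below as lower and reported by the study's array analysis as up-regulated. The study's PCR assays, on part of the same sample pairs, also gave higher *Ly49si1*, *Ly49i9* and *Aif1* in the allogeneic explants. They gave the direction of its array analysis for every gene tested except *RT1-CE10*, which was slightly lower by PCR. Against explants in medium only, the study's PCR also had these 3 genes higher in the allogeneic explants. Had the dye labels been exchanged throughout the series, every sign given here would turn, and the arrays alone cannot tell. The mean fell below -1, a 2-fold decrease, for 8 of the 15 probes, against 0.651% of all probes with a called decrease of that size and 0% with a called increase of that size by limma (0 probes at an unadjusted p under 0.05 either). The value was below 0 in all 12 rats for 7 of the 15 probes and in 11 rats for the other 8, where 3.55% of all probes were below 0 in 12 rats and 2.64% were above 0 in 12 rats. Since probes of the 3 genes share bases and arrays, the 15 calls are not 15 independent results. The array measures the whole explant with its infiltrating cells, and fewer cells of a type or less RNA per cell cannot be told apart.

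**Figure D1:**
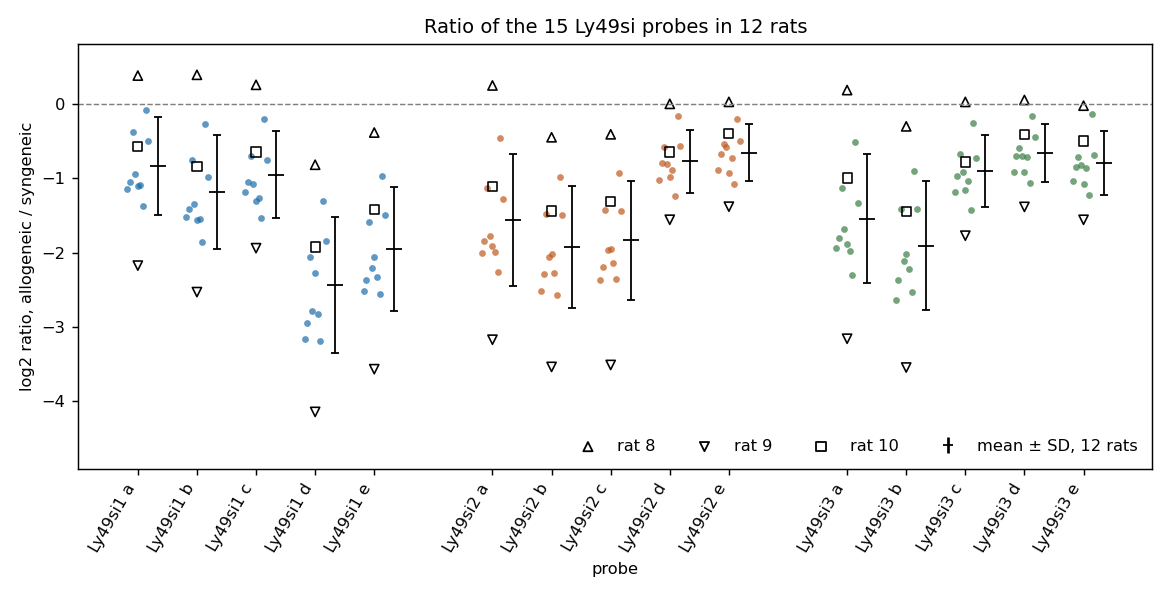
Log2 ratio of allogeneic over syngeneic (vertical axis) for each of the 15 probes (horizontal axis), with 1 point per rat, the mean of its 2 arrays, and the mean ± SD over 12 rats in black; triangles and squares pick out rats 8, 9 and 10. Rat 8 is the highest and rat 9 the lowest point of every probe, and probe d of *Ly49si1* reaches the lowest values.

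A pair of sources stood apart from the rest before any gene was considered. The first array of rat 10 had median intensities of 6668 in Cy3 and 25642 in Cy5, where the other 23 arrays lay between 135 and 216 in Cy3 and between 269 and 415 in Cy5. Its log ratios over all probes correlated with those of the other arrays of the same dye orientation by r between 0.0055 and 0.17. On this array the 15 probes gave log2 ratios between -0.07 and 0.43, and on the second array of the same rat between -3.78 and -1.16. Rat 8 differed in both of its arrays, which correlated with each other by r = 0.944 but with other rats' arrays of the same orientation by at most 0.31. Between the arrays of 1 rat, r was 0.13 in rat 10 and also low in rats 3 (0.20), 6 (0.26) and 2 (0.30). In the remaining rats it lay between 0.62 (rat 11) and 0.80 (rat 9). No pair of arrays of 1 orientation had a negative correlation. On the other 23 arrays between 74.8% and 90.4% of the spots were well above background.

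*Ly49si1* had a mean log2 ratio over its 5 probes of -1.48 ± 0.75 (SD, n = 12 rats; SE 0.20), which is 2.78-fold lower in the allogeneic explants (limma over 7249 genes, adjusted p = 0.000444). Of all genes 16.2% were called in either direction, 7.56% as lower and 8.64% as higher. The 12 rats ranged from -2.87 in rat 9 to -0.04 in rat 8, with a median of -1.67 and the second highest value of -0.57 in rat 11. All 12 gene means were below 0, as were those of 3.23% of all genes, but that of rat 8 lay next to 0.

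*Ly49si2* fell by 1.35 ± 0.66 on the log2 scale (SE 0.18, adjusted p = 0.000362, limma), a 2.55-fold decrease. Its rats lay between -2.63 and -0.12 with a median of -1.50. *Ly49si3* fell by 1.16 ± 0.60 (SE 0.16, adjusted p = 0.000493, limma), a 2.24-fold decrease, with rats between -2.28 and -0.02 and a median of -1.29. With the processed signals of the scanner software the decrease was 4.12-fold for *Ly49si1*, 5.04-fold for *Ly49si2* and 4.62-fold for *Ly49si3*, so that the size of the change was not fixed by these data. Rat 9 was the lowest and rat 8 the highest for both genes, and all 12 rats were below 0.

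With rat 10 represented by its second array alone, which was tried after the data were seen, the means were -1.57 ± 0.77, -1.45 ± 0.69 and -1.25 ± 0.62 (SD, n = 12) for *Ly49si1*, *Ly49si2* and *Ly49si3*. All 15 probes remained called, and the value of rat 10 moved from -1.08 to -2.26 for *Ly49si1*, from -0.99 to -2.18 for *Ly49si2* and from -0.83 to -1.88 for *Ly49si3*. Without rat 8 the means were -1.61, -1.46 and -1.27, and all 15 probes were called as well.

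The decrease was present in both dye orientations. With the allogeneic sample in Cy5 the mean log2 ratio was -1.41 ± 0.91 for *Ly49si1*, -1.25 ± 0.82 for *Ly49si2* and -1.05 ± 0.74 for *Ly49si3* (SD, n = 12 arrays), and with the allogeneic sample in Cy3 it was -1.54 ± 0.73, -1.45 ± 0.66 and -1.27 ± 0.59. The arrays with the allogeneic sample in Cy5 include the bright array of rat 10. The 12 rats were placed on 3 slides of 4 rats each, every array holding both samples. *Ly49si1* gave -1.61 ± 0.36 on slide 1, -1.40 ± 0.93 on slide 2 and -1.41 ± 1.01 on slide 3 (SD, n = 4). *Ly49si2* gave -1.45 ± 0.31, -1.30 ± 0.80 and -1.31 ± 0.91, and *Ly49si3* gave -1.26 ± 0.26, -1.13 ± 0.76 and -1.11 ± 0.82. The slide means lay closer to each other than the rats of a slide did on slides 2 and 3, which hold rats 8 and 9.

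**Figure D2:**
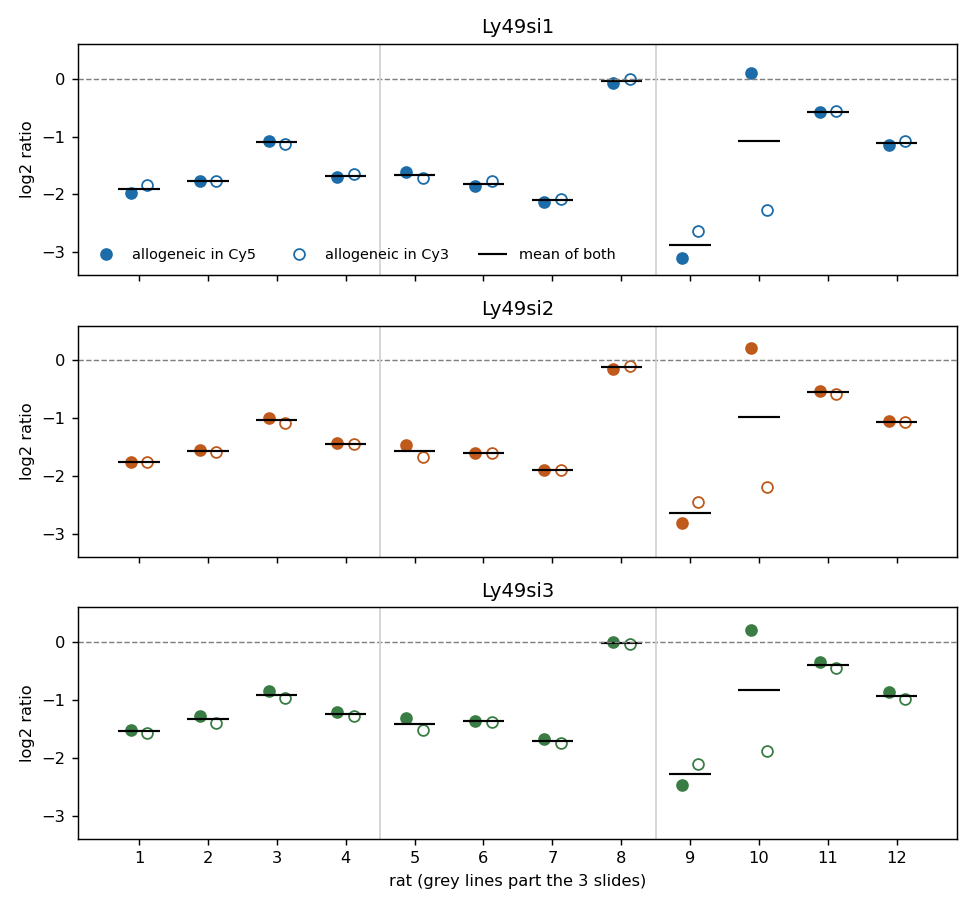
Mean log2 ratio over the 5 probes of *Ly49si1*, *Ly49si2* and *Ly49si3* (vertical axes) by rat (horizontal axis), with filled points for the array with the allogeneic sample in Cy5, open points for the array with it in Cy3 and a bar for their mean; grey lines part the slides. Both arrays of a rat lie close together except in rat 10 and, to a lesser degree, rat 9 (-3.10 and -2.64 for *Ly49si1*). In rat 10 the bright array is above 0 and the other is at -2.26, -2.18 and -1.88. Rat 8 lies next to 0 in all 3 genes.

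Among the probes of *Ly49si1*, probe d changed most. Its log2 ratio in the rats ran from -4.14 to -0.82 with a median of -2.53, and the mean of -2.44 ± 0.91 corresponds to a 5.42-fold decrease (adjusted p = 8.89e-05, limma). It was the lowest of the 5 probes in 12 of 12 rats, and it was negative on 24 of 24 arrays. Probe e ran from -3.57 to -0.39 (median -2.13, mean -1.95 ± 0.84). Both probes were below 0 in all 12 rats.

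Probes a, b and c of *Ly49si1* were below 0 in 11 rats each and above 0 in rat 8. Probe a ran from -2.18 to 0.38 (median -1.0, mean -0.84 ± 0.66, adjusted p = 0.00616, limma). Probe b ran from -2.53 to 0.39 (median -1.39, mean -1.19 ± 0.76), and probe c from -1.94 to 0.25 (median -1.07, mean -0.95 ± 0.59). The change of probes d and e was larger than that of probes a to c although all 5 are assigned to 1 gene. Probe d shared 49 positions with probe e of *Ly49i9*, with the 2 mismatches G8A and T47C counted from the 5′ end of probe d, and a run of 38 bases, whereas probe e of *Ly49si1* shared its run of 39 bases with *Ly49si2*.

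Within *Ly49si2*, probes b and c changed most, with means of -1.93 ± 0.82 and -1.84 ± 0.80, and all 12 rats below 0. Probe b ran from -3.54 to -0.45 (median -2.04), and probe c from -3.51 to -0.41 (median -1.96). Probe a ran from -3.17 to 0.24 (median -1.81, mean -1.56 ± 0.89), with rat 8 above 0. Probes d and e had smaller decreases of -0.78 ± 0.43 and -0.66 ± 0.38. They were also dim: in the allogeneic channel probe d was well above background on 7 and probe e on 4 of 24 arrays, against 21 each in the syngeneic channel.

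The 5 probes of *Ly49si3* showed the same split. Probe b fell by 1.91 ± 0.86, ran from -3.54 to -0.31 (median -2.07) and was below 0 in 12 rats. Probe a fell by 1.55 ± 0.87 and ran from -3.16 to 0.18 (median -1.74). Probes c, d and e fell by 0.91 ± 0.48, 0.67 ± 0.39 and 0.79 ± 0.43, and in the allogeneic channel they were well above background on 15, 5 and 11 of 24 arrays. In the syngeneic channel the counts were 22, 21 and 21. Of the 180 values formed by 15 probes in 12 rats, 172 were below 0, and the 8 above 0 all belonged to rat 8.

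The intensities of the channels are given on the log2 scale after normalization between arrays, with rat 10 taken from its second array. For probe d of *Ly49si1* the syngeneic channel ran from 8.21 to 11.54 over the rats (median 10.14), and the allogeneic channel from 7.19 to 7.86 (median 7.37). The ranges did not overlap for this probe, nor for probe c of *Ly49si2* (syngeneic 7.71 to 10.82, allogeneic 7.26 to 7.69) and probe b of *Ly49si3* (8.09 to 11.12 against 7.45 to 8.03). They overlapped for the other 12 probes. The share of all probes of the array without overlap was not determined, so this count is a description only. For probe b of *Ly49si2* the syngeneic channel ran from 7.66 to 10.85 (median 9.62) and the allogeneic channel from 7.20 to 7.68 (median 7.30). In each of these 4 probes the rats differed more in the syngeneic than in the allogeneic channel. The syngeneic channel of rat 8 was the lowest of all rats for these probes.

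**Figure D3:**
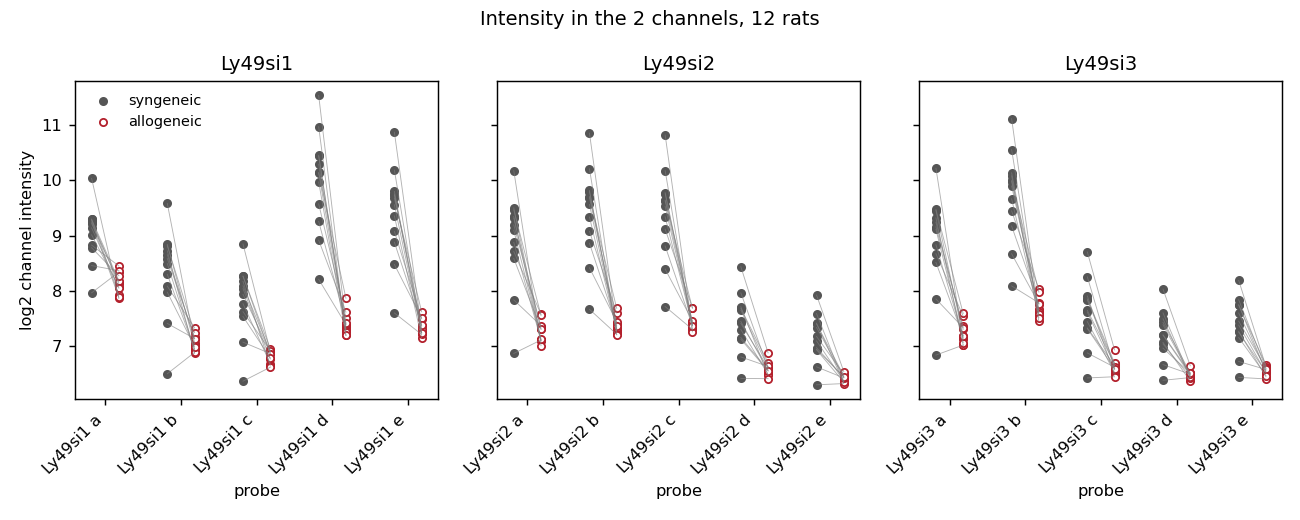
Log2 intensity (vertical axis) of the 15 probes (horizontal axis) in the syngeneic channel (filled) and the allogeneic channel (open) of 12 rats, with a line joining the 2 samples of a rat and rat 10 taken from its second array. The syngeneic points spread widely, from 8.21 to 11.54 for probe d of *Ly49si1*, and the allogeneic points lie within a narrow range, from 7.19 to 7.86 for the same probe.

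The size of the decrease depended on how background was handled. With the processed signals of the scanner software in place of normexp, the mean was -2.04 for *Ly49si1*, -2.33 for *Ly49si2* and -2.21 for *Ly49si3*, and all 15 probes were called. The dim probes moved most. Probe e of *Ly49si2* went from -0.66 to -2.48 and probe d of *Ly49si3* from -0.67 to -2.20. Within *Ly49si3* the gap between the weakest and the strongest probe was 1.24 on the log2 scale with normexp and 0.23 with the processed signals, and within *Ly49si2* it was 1.27 and 0.46. Within *Ly49si1* the gap did not narrow, with 1.60 and 2.09, and probe a remained the weakest (-1.02) and probe d the strongest (-3.11).

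**Figure D4:**
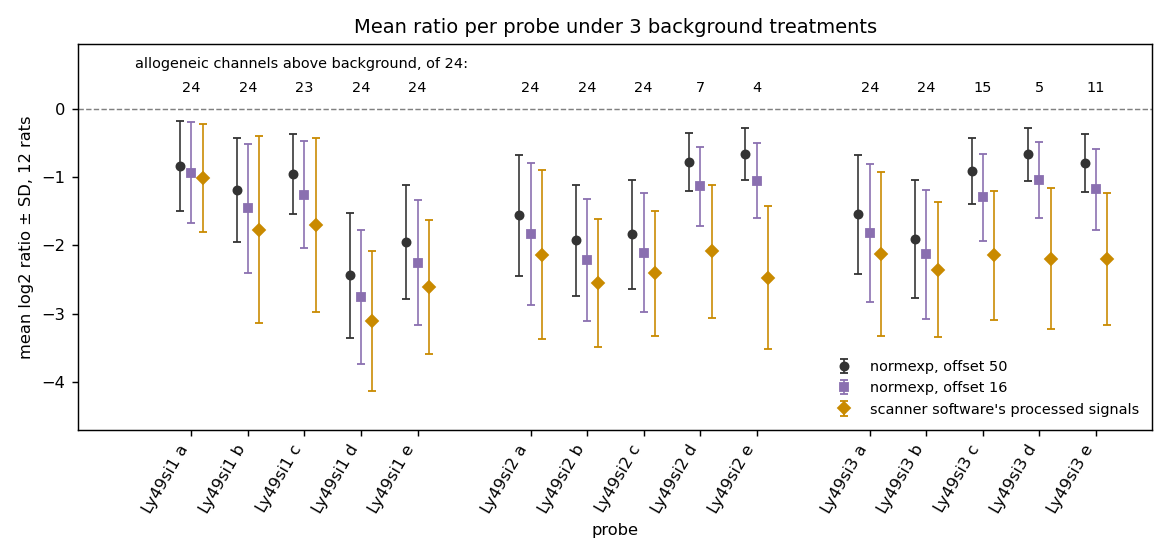
Mean log2 ratio ± SD over 12 rats (vertical axis) for each probe (horizontal axis) with normexp and an offset of 50, normexp and an offset of 16, and the processed signals of the scanner software; the figures at the top count the arrays, of 24, on which the allogeneic channel was well above background. The probes of *Ly49si2* and *Ly49si3* with low counts move from between -0.66 and -0.91 to about the level of the other probes of their gene, whereas probes a and d of *Ly49si1* stay apart.

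The means over probes differed between the 3 genes, but their order was not fixed. Within rats *Ly49si1* lay below *Ly49si2* by 0.12 ± 0.10 (SD, n = 12; 95% interval of the difference -0.19 to -0.06; lower in 11 of 12 rats; two-sided exact sign-flip permutation test, p = 0.00293, adjusted over 9 pairs p = 0.00293). It lay below *Ly49si3* by 0.31 ± 0.16 (-0.41 to -0.21; 12 of 12 rats; exact p = 0.000488, the smallest that 12 rats allow, adjusted p = 0.000549), and *Ly49si2* lay below *Ly49si3* by 0.19 ± 0.07 (-0.23 to -0.14; 12 of 12 rats; exact p = 0.000488, adjusted p = 0.000549). The first difference turned its sign with the processed signals (0.29, exact adjusted p = 0.000879), with the probes well above background in both channels on at least 12 of 24 arrays (0.30, exact adjusted p = 0.000628) and with the authors' series table (0.10, exact adjusted p = 0.00604). The second was 0.17 with the processed signals (exact adjusted p = 0.0137). The difference between *Ly49si2* and *Ly49si3* kept its sign under all alternatives tried (-0.32 to -0.13), but it depends on which probes each gene held. Pairs of their probes that share sequence differed by -0.014, 0.07, 0.13 and 0.008 (*Ly49si2* minus *Ly49si3*). The probes without such a partner in the other gene were probe b of *Ly49si2* (-1.93) and the dim probe e of *Ly49si3* (-0.79). A difference between the genes themselves is therefore not shown.

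Probes of different genes that share sequence were compared within rats, in 8 pairs chosen after the sequences were seen. The identical 60-mers of *Ly49si2* and *Ly49si3* (probes a) differed by -0.014 ± 0.059 on the log2 scale over 12 rats (exact sign-flip permutation test, p = 0.433, adjusted over 8 pairs p = 0.495), and by at most 0.128 on any of the 24 arrays. This gives the technical spread between 2 sets of 4 spots. Probe e of *Ly49si2* and probe d of *Ly49si3*, with 49 bases in common, differed by 0.008 (95% interval -0.020 to 0.036), and probe e of *Ly49si1* and probe b of *Ly49si2* by -0.028 (-0.067 to 0.011; exact adjusted p = 0.188). Probe d of *Ly49si2* and probe c of *Ly49si3*, which are shifted by 1 base, differed by 0.13 ± 0.06 (exact p = 0.000977, adjusted p = 0.00195), with the smaller decrease in *Ly49si2* in 11 of 12 rats. Probe c of *Ly49si2* and probe b of *Ly49si3* differed by 0.07 ± 0.11 (exact p = 0.0405, adjusted p = 0.0648).

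**Figure D5:**
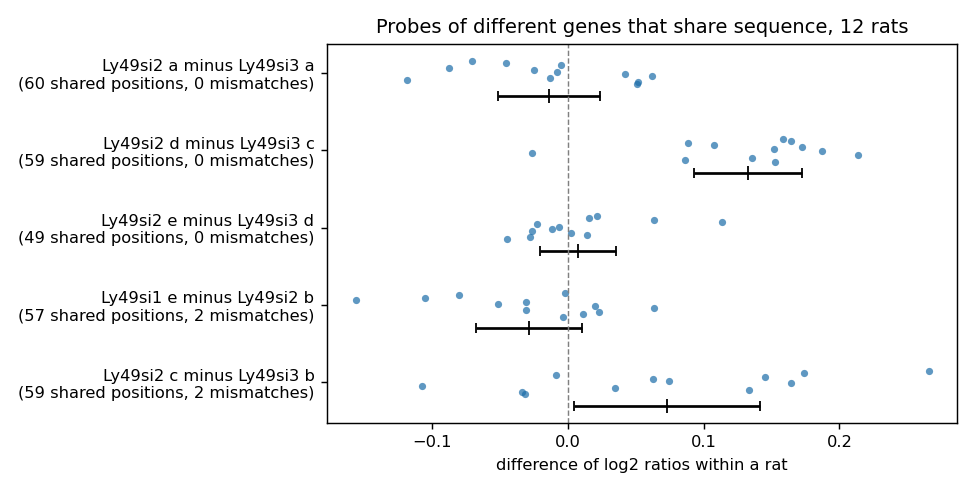
Difference of the log2 ratios of 2 probes within a rat (horizontal axis) for the 5 pairs of probes of different *Ly49si* genes that overlap (vertical axis), with 1 point per rat and, in black, the mean with its 95% interval. The identical probes a of *Ly49si2* and *Ly49si3* centre on -0.014, and probe d of *Ly49si2* minus probe c of *Ly49si3* lies above 0 in 11 of 12 rats.

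The same rats had the larger decreases in all 3 genes. Over 12 rats the gene means of *Ly49si1* and *Ly49si2* correlated with Pearson's r = 0.998 and Spearman's rho = 0.979, those of *Ly49si1* and *Ly49si3* with r = 0.996 and rho = 0.958, and those of *Ly49si2* and *Ly49si3* with r = 0.998 and rho = 0.993. The permutation p was 1e-05 for each r, the smallest that 100000 permutations can give, and at most 2e-05 for rho, and after adjustment over the 3 pairs it was 1e-05 and at most 2e-05. Without rats 8 and 9, the 2 farthest from the median, r was 0.995, 0.988 and 0.997. Over the 105 pairs of single probes r lay between 0.927 and 0.998 (median 0.980). The probes share arrays, RNA samples and in part sequence, and these correlations are not those of independent measurements.

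The 3 non-Ly49 genes whose ratio followed each member most closely over the 12 rats were taken from 7229 genes as a description. *Pcsk1*, a prohormone convertase, came first for all 3 members, with r = 0.962 for *Ly49si1*, 0.970 for *Ly49si2* and 0.971 for *Ly49si3*. Its mean log2 ratio was -0.82 ± 0.46, with rats from -1.67 to -0.05 and a median of -0.87. *Igsf6*, an immunoglobulin superfamily receptor of myeloid cells, was the third for *Ly49si2* (r = 0.956) and *Ly49si3* (r = 0.960), and its mean was -1.08 ± 0.81. RGD1564316_predicted was among the first 3 for every member (r = 0.951 to 0.967), and RGD1559887_predicted for *Ly49si1* (r = 0.957). The arrays are shared by all these genes.

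Of the other Ly49 genes, *Ly49i9* and *LOC690045* had larger decreases than the 3 bifunctional genes when the probes of each gene were averaged. The study describes the product of *LOC690045* as a receptor similar to *Ly49si1*. The 5 probes of *Ly49i9*, an inhibitory member, gave -2.28 ± 0.78 on the log2 scale (adjusted p = 4.39e-05, limma), with rats from -3.71 to -0.86 and a median of -2.36. The single probe of *LOC690045*, which lies beside *Ly49si3* in the reference order, gave -2.22 ± 0.94 (adjusted p = 0.000167, limma), with rats from -3.93 to -0.18 and a median of -2.31. Within rats the decrease of *Ly49si1* was smaller than that of *Ly49i9* by 0.80 ± 0.12, that of *Ly49si2* by 0.93 ± 0.17 and that of *Ly49si3* by 1.11 ± 0.22, each in 12 of 12 rats (exact sign-flip test, adjusted p = 0.000549). Against *LOC690045* the differences were 0.74 ± 0.25, 0.87 ± 0.33 and 1.05 ± 0.39, again in 12 of 12 rats (exact sign-flip test, adjusted p = 0.000549). These 6 differences kept their sign and their call under all alternatives tried, but not their size: with the processed signals *Ly49si1* and *Ly49i9* differed by 1.65, and *Ly49si2* and *Ly49si3* differed from *LOC690045* by 0.30 and 0.43. They compare means over probes and depend on which probes each gene held. Probe d of *Ly49si1* (mean -2.44, processed signals -3.11) lay below the probe of *LOC690045* (-2.22 and -2.64). It also lay within the range of the *Ly49i9* probes (-2.64 to -2.10). The 3 pairs of probes that overlap *Ly49i9* also differed within rats. Probe d of *Ly49si1* lay above probe e of *Ly49i9* by 0.20 ± 0.10 over 49 shared positions, and probes c of *Ly49si2* and b of *Ly49si3* lay above probe a of *Ly49i9* by 0.38 ± 0.14 and 0.30 ± 0.15 over 42 and 41 positions (exact sign-flip test, adjusted over 8 pairs p = 0.00195 for each).

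Their probes are shown with the run that each shares with its closest *Ly49si* probe in capitals, for the probe of *Ly49i9* that overlaps *Ly49si1* and for the probe of *LOC690045*.
Ly49i9 e: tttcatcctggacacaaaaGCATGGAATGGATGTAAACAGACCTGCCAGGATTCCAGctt
LOC690045: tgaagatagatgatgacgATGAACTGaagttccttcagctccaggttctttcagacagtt
The run was 38 bases for *Ly49i9* and 8 for *LOC690045*, so that the decrease of *LOC690045* was read by a probe with little sequence in common with the 15.

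The remaining Ly49 genes had ratios nearer to 0, in part from probes at background. Of 24 probes for 8 inhibitory genes, *Ly49i9* included, 9 were called as lower and 0 as higher by limma, with a median of -0.06, and of 22 probes for 6 activating genes 5 were called as lower and 0 as higher, with a median of -0.02. The median over all probes of the array was 0.01. Besides *Ly49i9*, the inhibitory genes with a called probe were *Ly49i3* (2 of 5 probes), *Ly49i7* (1 of 1) and *Ly49i6* (1 of 5). *Ly49i3* had probes from -1.27 to 0.03, and *Ly49i7* fell by 0.28 ± 0.20 (adjusted p = 0.00471, limma). Among the activating genes *Ly49s8* had 4 of 5 called probes with a gene mean of -0.31 ± 0.26, and *Ly49s4* had 1 of 5. *Klra5* fell with 5 of 5 probes and a gene mean of -0.53 ± 0.44. *Ly49i2*, *Ly49i4*, *Ly49i5*, *Ly49i8*, *Ly49s3*, *Ly49s5*, *Ly49s6* and *Ly49s7* had no called probe, and the gene means of these 8 lay between -0.04 and -0.01. Of their 20 probes 14 were well above background in either channel on at least 12 of 24 arrays, and *Ly49i4*, *Ly49i8* and *Ly49s7*, with 1 probe each, were so on 1 array in each channel. For these 3 genes, and for probes b and c of *Ly49i3*, which were well above background on 1 array too, a ratio near 0 does not show that expression was unchanged.

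The genes of the signalling pathway of Ly49 receptors were described from a list of 36 genes, of which 24 were measured. By limma 12 were lower and 1 was higher in the allogeneic explants, where 7.56% of all genes were called as lower and 8.64% as higher, and the list's median log2 ratio was -0.20 against 0.01 over all genes. *Tyrobp*, which encodes DAP12, the adaptor of the activating arm, fell by 0.71 ± 0.32 (adjusted p = 0.000235, limma). *Vav1*, a guanine nucleotide exchange factor, fell by 0.85 ± 0.50, and *Lcp2*, the adaptor SLP-76, by 0.78 ± 0.47. Among the phosphatases that ITIMs recruit, *Ptpn6* (SHP-1) fell by 0.41 ± 0.23 and *Inpp5d* (SHIP) by 0.49 ± 0.21, whereas *Ptpn11* (SHP-2) had -0.01 ± 0.07 and did not pass the test. Of the kinases that act after DAP12, *Syk* fell by 0.46 ± 0.23, and *Zap70* had 0.09 ± 0.39 (adjusted p = 0.647, limma). *Plcg1* was the gene that rose (0.29 ± 0.14), and *Plcg2* fell by 0.24 ± 0.12. These directions too follow the dye labels and would turn with them.

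The class I genes *RT1-A* and *RT1-CE*, the family that holds ligands of Ly49 receptors, had 19 genes on the array, of which 15 were lower and 0 higher by limma, against 7.56% and 8.64% of all genes, with a median of -0.23. *RT1-CE10* fell by 1.75 ± 0.45 (adjusted p = 5.01e-06, limma), *RT1-CE3* by 0.45 ± 0.22, *RT1-A2* by 0.41 ± 0.20 and *RT1-CE8* by 0.38 ± 0.17. The sequences of class I genes are alike, and a value may hold signal of more than 1 gene. Here as well the direction is that of the dye labels.

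Markers of the cells an explant could hold were set beside the *Ly49si* values, and their part in the result was not tested. Of all genes 7.56% were called as lower and 8.64% as higher. Of 17 measured markers of NK cells, 4 were lower and 0 higher by limma (*Gzmb* -0.69 ± 0.47, *Il2rb* -0.63 ± 0.37, *Nkg7* -0.31 ± 0.20, *Klrb1a* -0.12 ± 0.11), and the list's median was -0.01. Their summed intensity ran from 2976 to 3681 in the allogeneic and from 3045 to 4094 in the syngeneic channel, and *Klrc1*, *Klrc3* and *Klri2* were not well above background on 12 arrays. Of 14 T cell markers 5 were lower and 0 higher (*Cd5* -0.97 ± 0.84, *Cd6* -0.63 ± 0.49) with a median of -0.13, and with sums from 3777 to 5453 and from 4351 to 7557. Here *Cd28* and *Trat1* were not well above background.

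Of 10 macrophage markers 5 were lower and 2 higher, with *Fcgr3a* at -2.19 ± 0.40, *Ctss* at -1.40 ± 0.61 and *Aif1* at -1.27 ± 0.50 among the lower ones and *C1qa* at 0.21 ± 0.21 and *C1qc* at 0.19 ± 0.21 as the higher ones. The list's median was -0.15, *Cd14* (0.01 ± 0.26), *Adgre1* (-0.07 ± 0.17) and *C1qb* (0.09 ± 0.23) did not pass the test, and the sums ran from 19002 to 35123 and from 18256 to 46955. Of 4 B cell markers 1 was higher (*Fcer2* 0.12 ± 0.07) and 0 lower, with a median of 0.03. Keratinocyte and fibroblast markers, with 2 measured genes each, had 1 higher and 0 lower in each list (*Lgals7* 0.66 ± 0.58, *Col1a2* 0.55 ± 0.40). The summed keratinocyte intensity ran from 142557 to 274653 in the allogeneic and from 90543 to 182573 in the syngeneic channel. The ranges of the sums overlapped between the channels for every marker list. Such ranges over rats leave out the pairing of the explants within a rat, and the sums were not tested. All directions given for the marker lists follow the dye labels, like those of the *Ly49si* probes.

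Primers of the quantitative PCR assay for *Ly49si1* are shown because they lie within probes. The capitals mark the bases found in the probe.
Forward primer: tGGCCAATCTGAATTTTCCTTG
Reverse primer: ACATGGGAAGGGGTTCATGC
The forward primer matched 21 of its 22 bases at the start of probe b, which shares no run of more than 8 bases with probes of the other two genes. The reverse primer is the reverse complement of 20 bases of probe a. The shared probe a of *Ly49si2* and *Ly49si3* holds the same stretch with 3 differences, C10G, C11T and T13A, counted from the 5′ end of that stretch as read on the strand of the probe. Probes a and b, which overlap the assay, were among the 3 probes of *Ly49si1* with the smaller decreases. In the study this assay gave the opposite direction, with higher *Ly49si1* in the allogeneic explants of part of the same sample pairs.

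Promoters are shown because the 3 genes moved together over the rats, and whether their sequence has a part in this was not tested. The 250 bases before the start of each gene were taken from RefSeq on assembly GRCr8, and all 3 genes matched. Capitals mark the bases at which *Ly49si2* and *Ly49si3* differ.
Ly49si1, chr4:165286177-165286426, minus strand: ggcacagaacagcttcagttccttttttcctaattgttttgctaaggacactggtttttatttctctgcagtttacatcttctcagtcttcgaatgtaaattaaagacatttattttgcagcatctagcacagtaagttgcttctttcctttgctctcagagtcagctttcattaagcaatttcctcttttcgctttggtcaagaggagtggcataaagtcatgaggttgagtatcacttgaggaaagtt
Ly49si2, chr4:165397270-165397519, minus strand: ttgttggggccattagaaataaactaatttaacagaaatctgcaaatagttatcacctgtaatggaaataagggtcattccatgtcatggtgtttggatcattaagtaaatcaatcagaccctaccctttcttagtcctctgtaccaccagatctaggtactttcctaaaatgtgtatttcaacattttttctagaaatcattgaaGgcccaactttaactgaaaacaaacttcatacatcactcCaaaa
The promoter of *Ly49si3* (chr4:165188096-165188345, minus strand) was identical to that of *Ly49si2* in 248 of 250 positions, or 99.2%. That of *Ly49si1* had 46.0% identical positions with each of the others in a global alignment, with no shared run of more than 8 bases. The identity that windows of unrelated genes would give was not determined. The letters TATAAA, searched on both strands, were in none of the 3 windows and in 12.9% of 33469 promoters of the same length. A missing match says only that these letters are not in the window.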

How the data were processed

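RNA of 2 explants from each of 12 rats was compared on 24 two-color arrays, and samples were grouped by the source and dye labels. Per the file headers, the authors deposited scanner files of Feature Extraction 9.5.1.1 with mean and background intensities of each spot, and the processed intensities made by background subtraction and dye normalization. The deposited series table holds log2 ratios, found to be turned to allogeneic over syngeneic as the dye labels give it. The table is therefore no separate check of the direction. Its background treatment is not given in the sources used here. The submitters' processing notes name limma. The labels and the methods name different amplification kits.

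With R 4.3.3 and limma 3.58.1, mean intensities were corrected by normexp (offset 50) and normalized by loess within arrays, with control and outlier spots given no weight and then left out. Spots of a probe were averaged, and so were both arrays of each rat, being technical repeats of the same RNA. Ratios were tested against 0 by limma with Benjamini-Hochberg adjustment over 8453 probes, or over 7249 genes for means of a gene's probes, with a call at 0.05. A probe was taken as well above background on an array when at least 50% of its spots were. Channel intensities were quantile normalized on the average intensity of an array (Aquantile). Gene differences were tested by exact sign flips over rats. The number of rats limits the precision.

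On simulated data with 200 of 8453 probes changed between allogeneic and syngeneic explants, limma recovered 96% and 99.3% of those with a 2-fold change, and 4.48% of its calls were false.

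The members and gene lists were chosen with earlier results of these data known. Named were the 15 probes, *Ly49i9*, *LOC690045*, other Ly49 genes with a called probe, the 3 non-Ly49 genes of highest r to each member, and up to 4 called genes of largest change in each list. Further genes of the signalling and macrophage lists, and the Ly49 genes with no called probe, were named after their values were seen. A gene that this rule would name is not reported here. Alternatives concerned background, normalization, dim and outlier spots, orientation, slide, test, series table, the sign of rat 5 and leaving out each rat, and, after the data were seen, the bright array and shared probes. The exon of each probe was not analysed here.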

Additional observations from a re-analysis of the deposited data

How the results depend on the processing

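All 15 probes were called as lower, and the 3 gene means stayed negative and called, under each alternative background correction, normalization, dim and outlier spot treatment, single dye orientation, slide block and the series table, and, for the probe calls, under the mixed-effects ANOVA and the exact signed-rank test. The fit of 24 arrays with the rat as a random replicate block, which takes both arrays of a rat in place of their mean, gave 15 calls too and changed no call. The pairing of the explants is held in each log ratio, in the main test as well. In the simulation 18.1% of its calls were false. The gene means ranged, with the sign of rat 5 left as labelled, down to -2.04 (*Ly49si1*), -2.33 (*Ly49si2*) and -2.21 (*Ly49si3*), all with the processed signals. Turning the sign of both arrays of rat 5, a reading of what 1 exchanged pair of labels would do, left 0 of 15 probes called, with means of -1.20, -1.09 and -0.93 and an adjusted p of 0.0847 by limma for each gene. The standard errors of these means were 0.32, 0.29 and 0.26. The sign was turned for every probe of the array, and the share of all probes still called was not determined. Leaving out each rat gave 15 calls each time, with means from -1.61 to -1.35, from -1.46 to -1.24 and from -1.27 to -1.06.

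Of the differences between genes, *Ly49si1* minus *Ly49si2* reversed to 0.29 with the processed signals, 0.30 with the probes well above background in both channels and 0.10 with the series table. *Ly49si1* minus *Ly49si3* reversed to 0.17 with the processed signals, and was -0.020 (exact adjusted p = 0.114) with the bright probes and -0.044 (exact adjusted p = 0.336) with the series table. The cause was not tested. With only the probes that have no overlapping partner, *Ly49si2* had none left. Signal over background limits the size of the change, most in the dim probes d and e of *Ly49si2* and c, d and e of *Ly49si3*, but brighter probes moved too: with the processed signals probe c of *Ly49si1* went from -0.95 to -1.70, its probe d from -2.44 to -3.11 and probe a of *Ly49si2* from -1.56 to -2.14.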
